A study of Mus musculus with 6 samples.

Results

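The proteasome genes of mouse lung endothelial cells were compared between 3 libraries labelled CSE-KO (Cre-positive) and 3 labelled WT (Cre-negative), measured by bulk RNA sequencing. CSE is cystathionine gamma-lyase, the enzyme encoded by Cth that releases cysteine from cystathionine. The members were the protein-coding genes of the deposited table whose symbols begin with Psm, a letter from a to g and a digit, and 49 of the table's 18956 genes met this rule. Nothing in the sources used here states the Cre driver, the allele, the age of the animals or a separate animal or culture behind each library, so the spread that p-values rest on may be technical. Values are normalized counts, read as such from the whole numbers in the table because no header names the unit.

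The proteasome is the protease that breaks down proteins tagged with ubiquitin. Its core particle is a stack of rings, with outer alpha subunits (Psma genes) that gate the channel and inner beta subunits (Psmb genes), a few of which carry the active sites. The regulatory particle binds ubiquitin chains, removes them, and unfolds the substrate with a ring of ATPases (Psmc genes) beside a set of non-ATPase subunits (Psmd genes). In immune cells, and in endothelial cells exposed to interferon, Psmb8, Psmb9 and Psmb10 replace the constitutive catalytic subunits Psmb5, Psmb6 and Psmb7 and form the immunoproteasome, which favours peptides that MHC class I can present. When proteasome capacity falls short, the transcription factor NFE2L1 raises proteasome genes through antioxidant response elements.

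Total normalized counts were between 5698922 and 5765008 in the CSE-KO libraries and between 6028772 and 6052275 in the WT libraries. Cth itself was at 49, 43 and 63 in CSE-KO 1 to 3 and at 29, 27 and 26 in WT 1 to 3 (log2 fold change 0.89, SE 0.18, adjusted p = 0.00079, limma), which goes against the labels, so groups are named throughout by their labels only. The deleted exons are not given, and a value summed over the gene does not check whether part of it was removed. Marker genes were called at an adjusted p under 0.05 (limma), at which 38.3% of all tested genes rose and 39.0% fell. Endothelial markers summed to between 12095 and 12772 in the CSE-KO libraries and between 17849 and 18227 in the WT libraries. Of these 12 genes, 10 fell and 2 did not pass. Lymphatic endothelial markers summed to between 4789 and 6285 in the CSE-KO libraries and between 12284 and 12483 in the WT libraries, over 5 genes. Of these, 4 fell and 1 (Pdpn) rose. Macrophage and leukocyte markers summed to between 1640 and 1874 in the CSE-KO libraries and between 1052 and 1098 in the WT libraries, over 17 genes. Of the 15 tested, 13 rose and 1 fell. The gene that fell, Cd14, made up most of the WT sums. It was at 315, 216 and 187 in CSE-KO 1 to 3 and at 788, 775 and 775 in WT 1 to 3. Ptprc, Adgre1, Itgam and Marco were listed at 0 in all WT libraries and were above 0 in every CSE-KO library. Fibroblast and mural markers summed to between 1770 and 2145 in the CSE-KO libraries and between 1526 and 1642 in the WT libraries, over 8 genes, of which 2 rose (Acta2 and Dcn), 3 fell (Pdgfrb, Col3a1 and Cspg4) and 3 did not pass. Epithelial markers summed to between 273 and 279 in the CSE-KO libraries and between 275 and 318 in the WT libraries, over 5 genes. The part of these markers in the values of the proteasome genes was not tested. In bulk RNA, more cells of a type and more RNA per cell cannot be told apart.

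Most proteasome genes were modestly higher in the libraries labelled CSE-KO, and the immunoproteasome genes Psmb9 and Psmb10 were lower. All 49 members passed the filter on low values. At an adjusted p under 0.05 (limma, Benjamini-Hochberg over 13750 tested genes), 36 members rose (73.5%), 6 fell (12.2%) and 7 did not pass, beside 77.4% of all tested genes that passed, 38.3% that rose and 39.0% that fell. The median log2 fold change of the members was 0.25, beside 0.001 for all tested genes, and 0.33 beside 0.077 when library totals were set equal. Most of the changes were small, and 6 of the 42 members called, Psmc3ip among them, changed by at least 1.5-fold on the log2 scale. An estimate of at least 1.2-fold was found in 26 of the 49 members and in 9045 of the 13750 tested genes. At least 2-fold was reached by 1 member and by 3073 of the tested genes. Tested against a fold of 1.2 in either direction, 11 members rose (22.4%), a share near the 23.1% of all tested genes, and 1 fell, beside 25.7% of all tested genes. Every CSE-KO library lay above every WT library in 35 members (40.0% of all tested genes) and below every WT library in 6 (40.4% of all tested genes), while 80.4% of all tested genes had no overlap in one direction or the other. With WT counted as 1 sample, the median log2 fold change of the members was 0.25, beside −0.0015 for all tested genes. The spread in that fit comes from the CSE-KO libraries alone, and the lone WT sample is assumed to vary as they do. The members together made up 0.454%, 0.470% and 0.462% of all normalized counts in CSE-KO 1 to 3 and 0.385%, 0.377% and 0.378% in WT 1 to 3. The 49 genes lie on 16 chromosomes, with 10 of them on chromosome 11.

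**Figure D1:**
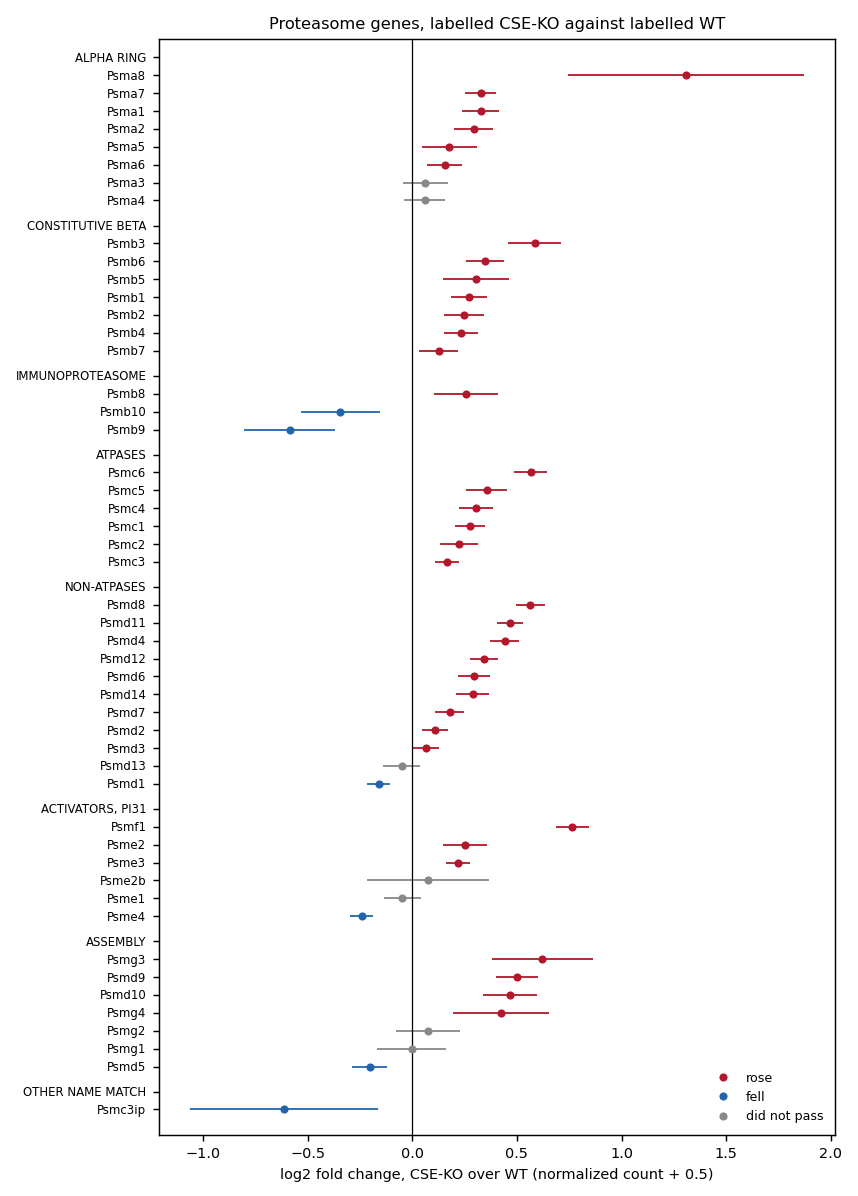
Log2 fold change, CSE-KO over WT, of the 49 proteasome genes by class, on the scale of log2(normalized count + 0.5). Points are limma estimates from 3 libraries per group, bars are 95% confidence intervals, and colour gives the call. Of the 49, 36 lie to the right of 0 and passed, 6 lie to the left and passed, and Psmb9 and Psmb10 stand apart from the other beta subunits.

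Promoter sequences, from RefSeq on build GRCm38.p6, were matched by symbol for 41 of the 49 genes, as windows from 250 bases before to 50 bases after each annotated start. They are shown because many members moved together and the core of the antioxidant response element, TGACNNNGC, is the site through which NFE2L1 and NFE2L2 bind. That motif, searched on both strands, occurred in 6 of 44 member windows (13.6%) and in 12.4% of all 32851 windows, so its share among members was near the background. All 6 matches are printed here with the motif in capitals, 5′ to 3′ on the strand of the gene, so that a match on the opposite strand appears as its reverse complement. They belong to Psmb5 (chr14:54618009-54618068, minus strand), Psmb6 (chr11:70525297-70525356, plus), Psmc6 (chr14:45329574-45329633, plus), Psmd12 (chr11:107479278-107479337, plus), Psmd9 (chr5:123228130-123228189, plus) and Psme4 (chr11:30771758-30771786, plus).
Psmb5: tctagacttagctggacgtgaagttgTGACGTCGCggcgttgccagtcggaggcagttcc
Psmb6: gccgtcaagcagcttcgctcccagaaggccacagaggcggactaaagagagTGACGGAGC
Psmc6: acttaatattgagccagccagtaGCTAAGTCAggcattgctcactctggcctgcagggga
Psmd12: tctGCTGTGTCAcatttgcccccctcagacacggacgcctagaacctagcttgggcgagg
Psmd9: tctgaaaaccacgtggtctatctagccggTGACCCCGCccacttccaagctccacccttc
Psme4: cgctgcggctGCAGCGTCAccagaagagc
Of these 6 genes, Psmb5, Psmb6, Psmc6, Psmd12 and Psmd9 rose and Psme4 fell, as given with their values beside each class. Of all 49 members, 73.5% rose and 12.2% fell, and of all tested genes 38.3% rose and 39.0% fell. Another motif, GAAA followed by any 2 bases and GAAA again, part of the element through which interferon-activated factors bind, occurred in 5 of 44 member windows (11.4%) and in 3.44% of all windows. Those were Psmb3, Psmd4, Psmd9, Psme1 and Psmg4, and no match to these letters was found for Psmb8, Psmb9 or Psmb10. The members without a window are not listed here, so Psmb8, Psmb9 and Psmb10 may not have been searched. The matches of Psmb3 (chr11:97703246-97703305, plus strand), a member that rose, and of Psme1 (chr14:55578493-55578522, plus strand), one that did not pass, are printed with the motif in capitals.
Psmb3: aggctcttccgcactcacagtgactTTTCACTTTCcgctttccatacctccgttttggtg
Psme1: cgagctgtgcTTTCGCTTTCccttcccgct
The motif TGATGNAA, the core of the amino acid response element that ATF4 binds with its partners, occurred in 1 of 44 member windows (2.27%, in Psmd13) and in 3.97% of all windows. These are matches of letters in short windows and show no binding.

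In the alpha ring, which forms the gate of the core particle, 6 of 8 members rose, 0 fell and 2 did not pass. Of all tested genes, 38.3% rose and 39.0% fell. The median log2 fold change of the ring was 0.24. Psma7 was at 603, 610 and 599 normalized counts in CSE-KO 1 to 3 and at 471, 486 and 486 in WT 1 to 3 (log2 fold change 0.33, SE 0.03, adjusted p = 4.0e-06, limma). Psma1 was close to it, at 551, 548 and 546 in CSE-KO 1 to 3 and 424, 458 and 430 in WT 1 to 3 (log2 fold change 0.33). The groups did not overlap in either gene, as in 80.4% of all tested genes. Psma2, Psma5 and Psma6 rose by 0.29, 0.18 and 0.15 on the log2 scale. The call of Psma5 was lost without CSE-KO 2 (adjusted p = 0.060) and without WT 1 (adjusted p = 0.056), and with WT 1 to 3 counted as 1 sample (adjusted p = 0.126).

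Psma3 and Psma4 were the alpha genes that did not pass. Psma3 was at 315, 301 and 303 in CSE-KO 1 to 3 and at 302, 292 and 286 in WT 1 to 3 (log2 fold change 0.06, 95% interval −0.04 to 0.17). Psma4 was at 388, 371 and 364 in CSE-KO 1 to 3 and at 366, 350 and 362 in WT 1 to 3 (0.06, −0.04 to 0.16). In both, the groups overlapped, and both passed when library totals were set equal (adjusted p = 0.023 and 0.017). Psma8 had the largest log2 fold change of the 49 genes and the lowest level per exonic base. It encodes an alpha subunit known from the testis, where it takes the place of Psma7 in germ cells. It was at 46, 33 and 37 in CSE-KO 1 to 3 and at 15, 21 and 11 in WT 1 to 3, a 2.47-fold rise (log2 fold change 1.31, SE 0.26, adjusted p = 0.00066). Per kilobase of exon, it stood at 15.5 in the CSE-KO libraries and 6.28 in the WT libraries, while Psma1 to Psma7 stood between 78.7 and 374 in the CSE-KO libraries and between 75.3 and 336 in the WT libraries.

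All 7 constitutive beta genes rose, beside 38.3% of all tested genes, with a median log2 fold change of 0.27. Every CSE-KO library lay above every WT library in each of them, beside 40.0% of all tested genes. Psmb3, a beta subunit with no active site, rose most, at 377, 384 and 393 in CSE-KO 1 to 3 and at 266, 268 and 236 in WT 1 to 3 (log2 fold change 0.58, SE 0.06, adjusted p = 2.9e-06). Psmb1, Psmb2 and Psmb4 also rose, by 0.27, 0.25 and 0.23 on the log2 scale. The 3 catalytic subunits rose to different degrees.

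Psmb5, the chymotrypsin-like subunit and the main target of the drug bortezomib, was at 182, 191 and 170 in CSE-KO 1 to 3 and at 148, 145 and 146 in WT 1 to 3 (log2 fold change 0.30, SE 0.07, adjusted p = 0.0023). Psmb6, the caspase-like subunit, was at 497, 508 and 503 in CSE-KO 1 to 3 and at 409, 398 and 378 in WT 1 to 3 (0.35, SE 0.04, adjusted p = 1.3e-05). Psmb7, the trypsin-like subunit, was at 434, 467 and 454 in CSE-KO 1 to 3 and at 423, 404 and 414 in WT 1 to 3 (0.13, SE 0.04, adjusted p = 0.017). The rise of Psmb7 was the smallest of the class. Its call was lost without CSE-KO 2 (adjusted p = 0.074), without WT 2 (0.064), with CSE-KO 2 and 3 counted as 1 sample (0.051) and with WT counted as 1 sample (0.123).

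The 3 immunoproteasome genes did not move together, with 1 rise and 2 falls, beside 38.3% and 39.0% of all tested genes. Psmb8, which replaces Psmb5, was at 361, 382 and 361 in CSE-KO 1 to 3 and at 324, 273 and 329 in WT 1 to 3, a 1.19-fold rise (log2 fold change 0.26, SE 0.07, adjusted p = 0.0058). Psmb9, which replaces Psmb6, was at 82, 85 and 81 in CSE-KO 1 to 3 and at 131, 112 and 131 in WT 1 to 3 (−0.59, SE 0.10, adjusted p = 0.00022), so that WT was 1.51-fold higher. Psmb10, which replaces Psmb7, was at 164, 192 and 174 in CSE-KO 1 to 3 and at 248, 204 and 222 in WT 1 to 3 (−0.34, SE 0.09, adjusted p = 0.0034). The groups did not overlap in any of the 3, as in 80.4% of all tested genes, and WT 2 was the lowest WT library in each. Leaving out any 1 library kept the direction and the call of all 3, with log2 fold changes between 0.17 and 0.31 for Psmb8, between −0.66 and −0.55 for Psmb9 and between −0.41 and −0.27 for Psmb10. Against a fold of 1.2, Psmb9 alone of the 3 passed. Leukocytes carry much immunoproteasome, and the markers of macrophages and leukocytes that summed higher in the CSE-KO libraries moved in the same libraries in which Psmb9 and Psmb10 were lower and Psmb8 higher. Their part in these values was not tested.

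**Figure D2:**
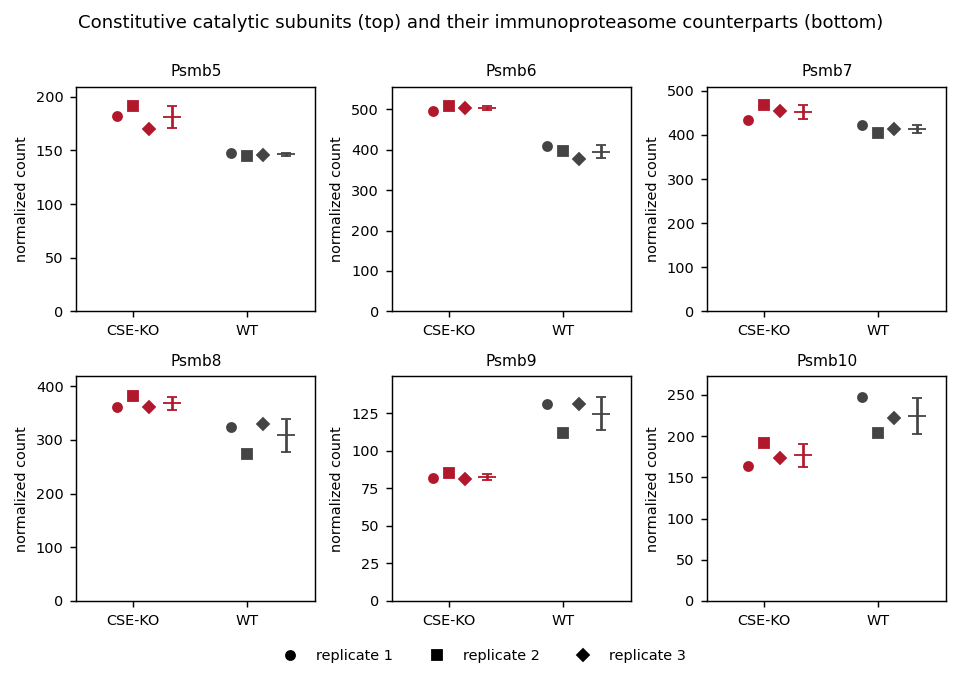
Normalized counts of the constitutive catalytic subunits (top row) and of the immunoproteasome subunits that replace them (bottom row), with 1 marker per library and the mean with its SD (n = 3 libraries per group) at the side. Psmb5, Psmb6, Psmb7 and Psmb8 lie higher in the CSE-KO libraries and Psmb9 and Psmb10 lower. The groups do not overlap, as in 80.4% of all tested genes.

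Psmb9 and Psmb8 lie side by side in the MHC region of chromosome 17, from 34181987 to 34187764 on the minus strand and from 34197721 to 34201454 on the plus strand (mm10), with the peptide transporter gene Tap1 between them (34187553 to 34197225, plus). The neighbours did not move together. Tap1 was at 783, 877 and 789 in CSE-KO 1 to 3 and at 693, 596 and 708 in WT 1 to 3 (log2 fold change 0.30, adjusted p = 0.0095, limma), a rise like that of Psmb8. Tap2, the partner of Tap1 just beyond Psmb8 (34203527 to 34216321, plus), was at 394, 431 and 414 in CSE-KO 1 to 3 and at 486, 430 and 446 in WT 1 to 3 (−0.14, adjusted p = 0.036). The call of Tap2 was lost with library totals set equal (adjusted p = 0.310), with the replicate block (0.070) and without CSE-KO 1, CSE-KO 3, WT 1 or WT 3 (0.059 to 0.162). Exons of Psmb9 and Tap1 share 212 bases on opposite strands, and exons of Psmb8 share 498 bases with the antisense gene Gm20496. The sources used here do not state whether reads were assigned by strand, so reads of such partners may not be told apart.

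Set against the subunit it replaces, Psmb9 and Psmb10 were lower in every CSE-KO library than in any WT library, and Psmb8 was not. The log2 ratio of Psmb9 to Psmb6, both per kilobase of exon, was −3.56, −3.54 and −3.59 in CSE-KO 1 to 3 and −2.61, −2.79 and −2.49 in WT 1 to 3, a difference of −0.93. That of Psmb10 to Psmb7 was −0.40, −0.28 and −0.38 in CSE-KO 1 to 3 and 0.24, 0.02 and 0.11 in WT 1 to 3, a difference of −0.47. That of Psmb8 to Psmb5 was −0.92, −0.91 and −0.83 in CSE-KO 1 to 3 and −0.78, −1.001 and −0.74 in WT 1 to 3, a difference of −0.05. The groups were separate for the ratios of Psmb9 and Psmb10 and overlapped for that of Psmb8, whose difference turned to 0.0037 without WT 3. An exact two-sided permutation test over the 6 libraries gave p = 0.1, 0.1 and 0.7 (0.15, 0.15 and 0.70 adjusted over the 3 pairs), and 0.1 is the smallest p that 3 against 3 can give. The heights of these ratios depend on annotated exon lengths, which include all isoforms, but the differences between groups do not.

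**Figure D3:**
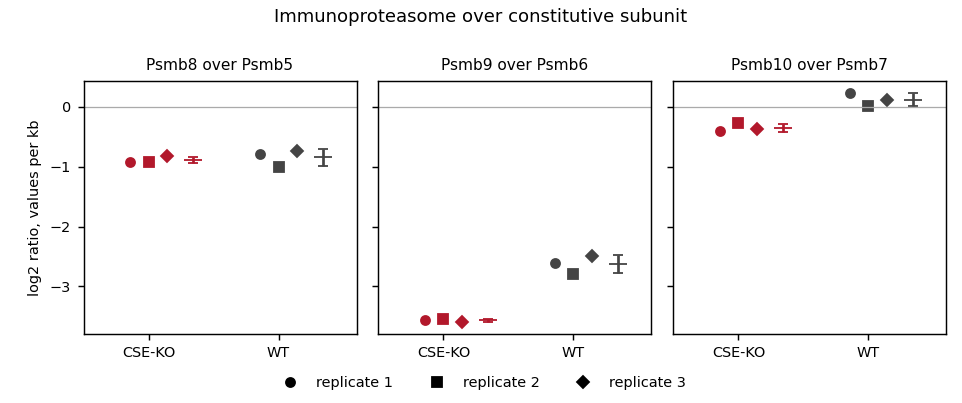
Log2 ratio of each immunoproteasome subunit to the constitutive subunit it replaces, from values per kilobase of exon, with 1 marker per library and the mean with its SD (n = 3 libraries per group). The Psmb9 ratio lies near −3.56 in the CSE-KO libraries and −2.63 in the WT libraries, while the Psmb8 ratios of the groups overlap.

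All 6 ATPases of the regulatory particle rose, beside 38.3% of all tested genes, with a median log2 fold change of 0.29. Every CSE-KO library lay above every WT library in each of the 6, beside 40.0% of all tested genes. Psmc6 rose most, at 840, 861 and 884 in CSE-KO 1 to 3 and at 603, 582 and 560 in WT 1 to 3 (1.48-fold, log2 fold change 0.57, SE 0.04, adjusted p = 8.8e-08, limma). Psmc3 rose least, at 900, 920 and 914 in CSE-KO 1 to 3 and at 821, 808 and 807 in WT 1 to 3 (0.17, SE 0.03, adjusted p = 0.00015). Psmc5, Psmc4, Psmc1 and Psmc2 lay between them, at 0.36, 0.30, 0.28 and 0.22.

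Of the 11 non-ATPase subunits, 9 rose, 1 fell and 1 did not pass, with a median of 0.29. Of all tested genes, 38.3% rose and 39.0% fell. Psmd8, a subunit of the lid that is added late in assembly, was at 960, 1008 and 976 in CSE-KO 1 to 3 and at 679, 651 and 660 in WT 1 to 3 (1.48-fold, log2 fold change 0.56, SE 0.03, adjusted p = 3.0e-08, limma). Psmd11, a lid subunit that touches the core particle, rose by 0.47, and Psmd4, a receptor for ubiquitin chains, by 0.44. Psmd14, the enzyme that cuts ubiquitin chains from the substrate, rose by 0.29, and its partner Psmd7 by 0.18. Psmd12 and Psmd6, other lid subunits, rose by 0.34 and 0.29. Every CSE-KO library lay above every WT library in these 7 genes, beside 40.0% of all tested genes.

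The base also holds a pair of large scaffold subunits, which moved in opposite directions. Psmd1, which anchors a ubiquitin receptor, was at 985, 961 and 985 in CSE-KO 1 to 3 and at 1087, 1102 and 1085 in WT 1 to 3, the only fall among subunits of the regulatory particle at this threshold (−0.16, SE 0.03, adjusted p = 0.00013, limma). Psmd2, the other scaffold, was at 1409, 1434 and 1467 in CSE-KO 1 to 3 and at 1376, 1307 and 1312 in WT 1 to 3 (0.11, SE 0.03, adjusted p = 0.0037). Psmd3, a lid subunit, rose by 0.07 (adjusted p = 0.046) with overlapping groups, and its call was lost without CSE-KO 1, CSE-KO 3, WT 2 or WT 3 (adjusted p between 0.070 and 0.136) and with the replicate block (0.059). Psmd13 did not pass, at 529, 575 and 569 in CSE-KO 1 to 3 and at 588, 569 and 574 in WT 1 to 3 (log2 fold change −0.05, 95% interval −0.14 to 0.04), and its direction turned to 0.024 with library totals set equal.

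Among the activators and their relatives, Psmf1 stood out in size. It encodes PI31, which inhibits the core particle in the test tube and has been linked to proteasome transport. Psmf1 was at 641, 673 and 671 in CSE-KO 1 to 3 and at 390, 386 and 392 in WT 1 to 3, a 1.70-fold rise (log2 fold change 0.76, SE 0.04, adjusted p = 1.0e-08, limma). The caps that can take the place of the regulatory particle moved in different directions. Psme4, the nuclear activator PA200, fell to 1273, 1218 and 1227 in CSE-KO 1 to 3, against 1458, 1468 and 1469 in WT 1 to 3 (−0.24, SE 0.02, adjusted p = 4.0e-06). Psme3, the nuclear PA28 gamma, rose to 914, 915 and 913 in CSE-KO 1 to 3, against 795, 777 and 786 in WT 1 to 3 (0.22, SE 0.03, adjusted p = 1.6e-05).

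Psme1 and Psme2 encode the subunits of the interferon-inducible activator PA28, and they lie 5911 bases apart on chromosome 14. Psme2 rose to 309, 319 and 312 in CSE-KO 1 to 3, against 265, 258 and 266 in WT 1 to 3 (0.25, SE 0.05, adjusted p = 0.00048). Psme1 was at 381, 371 and 377 in CSE-KO 1 to 3 and at 386, 388 and 392 in WT 1 to 3 and did not pass (log2 fold change −0.05, 95% interval −0.13 to 0.04). Its direction turned to 0.027 with library totals set equal. Psme2b, a gene on chromosome 11 named as a copy of Psme2, was at 51, 49 and 54 in CSE-KO 1 to 3 and at 46, 51 and 49 in WT 1 to 3 and did not pass. Reads may be shared between Psme2 and this copy, so both values are uncertain.

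**Figure D4:**
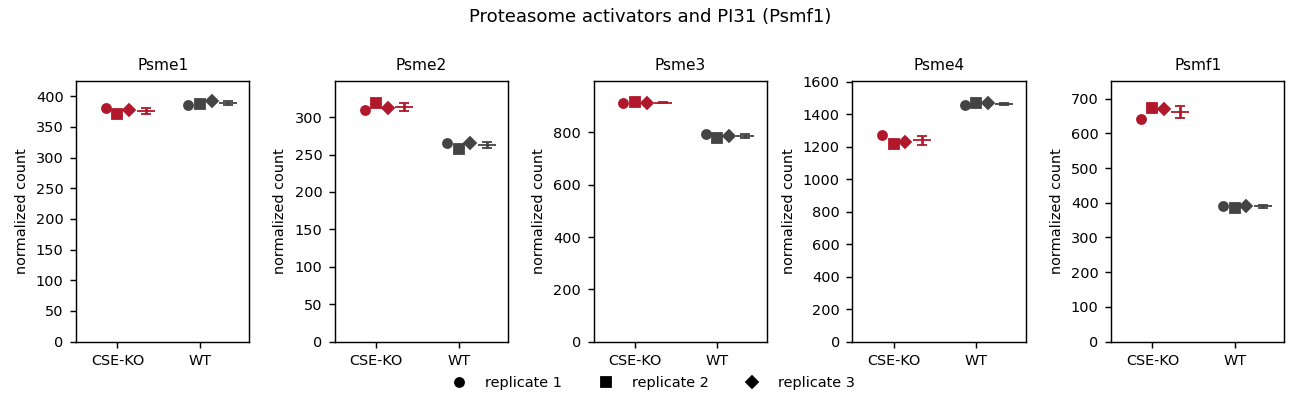
Normalized counts of the activator genes Psme1 to Psme4 and of Psmf1, with 1 marker per library and the mean with its SD (n = 3 libraries per group). Psme2, Psme3 and Psmf1 lie higher in the CSE-KO libraries, Psme4 lies lower, and Psme1 did not pass.

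Assembly factors, which help the rings and the base form and then leave, rose in 4 of 7 members and fell in 1. Of all tested genes, 38.3% rose and 39.0% fell. The median log2 fold change of the class was 0.42. Psmg3 and Psmg4 encode the pair that acts on the growing alpha ring, and both rose. Psmg3 was at 93, 104 and 107 in CSE-KO 1 to 3 and at 62, 65 and 70 in WT 1 to 3 (1.54-fold, log2 fold change 0.62, SE 0.11, adjusted p = 0.00030, limma), and Psmg4 rose by 0.42 (adjusted p = 0.0030). Psmg1 and Psmg2 encode the other pair, and neither passed. Psmg1 was at 181, 200 and 170 in CSE-KO 1 to 3 and at 185, 187 and 179 in WT 1 to 3 (95% interval of the log2 fold change −0.17 to 0.16). Psmg2 was at 189, 207 and 181 in CSE-KO 1 to 3 and at 178, 181 and 188 in WT 1 to 3 (−0.08 to 0.23).

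The chaperones of the ATPase ring also differed among themselves. Psmd9 and Psmd10 (gankyrin) rose by 0.50 and 0.47 on the log2 scale, with Psmd9 at 441, 462 and 474 in CSE-KO 1 to 3 and at 333, 312 and 328 in WT 1 to 3. Psmd5 fell to 582, 594 and 586 in CSE-KO 1 to 3, against 711, 650 and 670 in WT 1 to 3 (−0.20, SE 0.04, adjusted p = 0.00046, limma). Psmc3ip met the symbol rule, but it encodes a partner of meiotic recombination enzymes and not a proteasome subunit. It was at 39, 49 and 30 in CSE-KO 1 to 3 and at 70, 48 and 62 in WT 1 to 3, with overlapping groups (−0.61, SE 0.20, adjusted p = 0.017), and its call was lost without CSE-KO 3, WT 1 or WT 3 (adjusted p between 0.056 and 0.082).

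Genes of the same pathway that the symbol rule does not take moved in part like the members. Of 11 proteasome partners, 7 rose and 1 fell, beside 38.3% and 39.0% of all tested genes, with a median log2 fold change of 0.27. Adrm1, the ubiquitin receptor of the base, rose to 448, 462 and 462 in CSE-KO 1 to 3, against 386, 333 and 345 in WT 1 to 3. The deubiquitinases Uchl5 and Usp14 rose by 0.33 and 0.24 on the log2 scale, and Akirin2, which helps carry proteasomes into the nucleus, by 0.40. Txnl1, a thioredoxin-like protein bound to the regulatory particle, rose by 0.48. Zfand2a, a stress-induced protein that binds the regulatory particle, rose to 1651, 1682 and 1704 in CSE-KO 1 to 3, against 797, 759 and 793 in WT 1 to 3 (1.10, adjusted p = 1.6e-10, limma). Ube3c, a ligase that lengthens ubiquitin chains at the proteasome, fell to 719, 689 and 720 in CSE-KO 1 to 3, against 1039, 1034 and 1064 in WT 1 to 3 (−0.56, adjusted p = 2.2e-08). Pomp, the chaperone of beta ring assembly, was at 377, 384 and 365 in CSE-KO 1 to 3 and at 389, 382 and 382 in WT 1 to 3 and did not pass.

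Of 14 ubiquitin and shuttle genes, 9 rose and 1 fell, beside 38.3% and 39.0% of all tested genes, with a median of 0.15. The ubiquitin gene Ubb rose to 326, 319 and 332 in CSE-KO 1 to 3, against 203, 208 and 194 in WT 1 to 3 (0.69, adjusted p = 4.0e-07, limma). Ufd1, a partner of the unfoldase p97, rose by 0.58, and the shuttle receptors Ubqln1 and Rad23b by 0.44 and 0.34. Of 9 enzymes and factors around NFE2L1, 5 rose and 4 fell, beside 38.3% and 39.0% of all tested genes. The small MAF genes Mafk, Maff and Mafg, whose products pair with NFE2L1 and NFE2L2, rose by 0.64, 0.52 and 0.42. Ddi2, the protease that releases active NFE2L1 from its membrane-bound form, fell to 1004, 936 and 986 in CSE-KO 1 to 3, against 1211, 1226 and 1216 in WT 1 to 3 (−0.32, adjusted p = 1.9e-06). Nfe2l1 itself was at 1763, 1733 and 1783 in CSE-KO 1 to 3 and at 1860, 1884 and 1848 in WT 1 to 3 (−0.08, adjusted p = 0.0040), a call lost with library totals set equal (adjusted p = 0.677) and a direction that turned to 0.0095 with upper-quartile scaling.

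Of 15 MHC class I and interferon genes, 7 rose and 4 fell, beside 38.3% and 39.0% of all tested genes, with a median log2 fold change of 0.13. Irf8, a transcription factor of the interferon response and of myeloid cells, fell to 210, 170 and 146 in CSE-KO 1 to 3, against 558, 567 and 584 in WT 1 to 3 (−1.71, adjusted p = 1.3e-05, limma). Irf9, a subunit of the complex that interferon activates, rose by 0.20, while the peptide-loading gene Tapbp and the peptide-trimming gene Erap1 fell by 0.24 and 0.37 on the log2 scale.

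**Figure D5:**
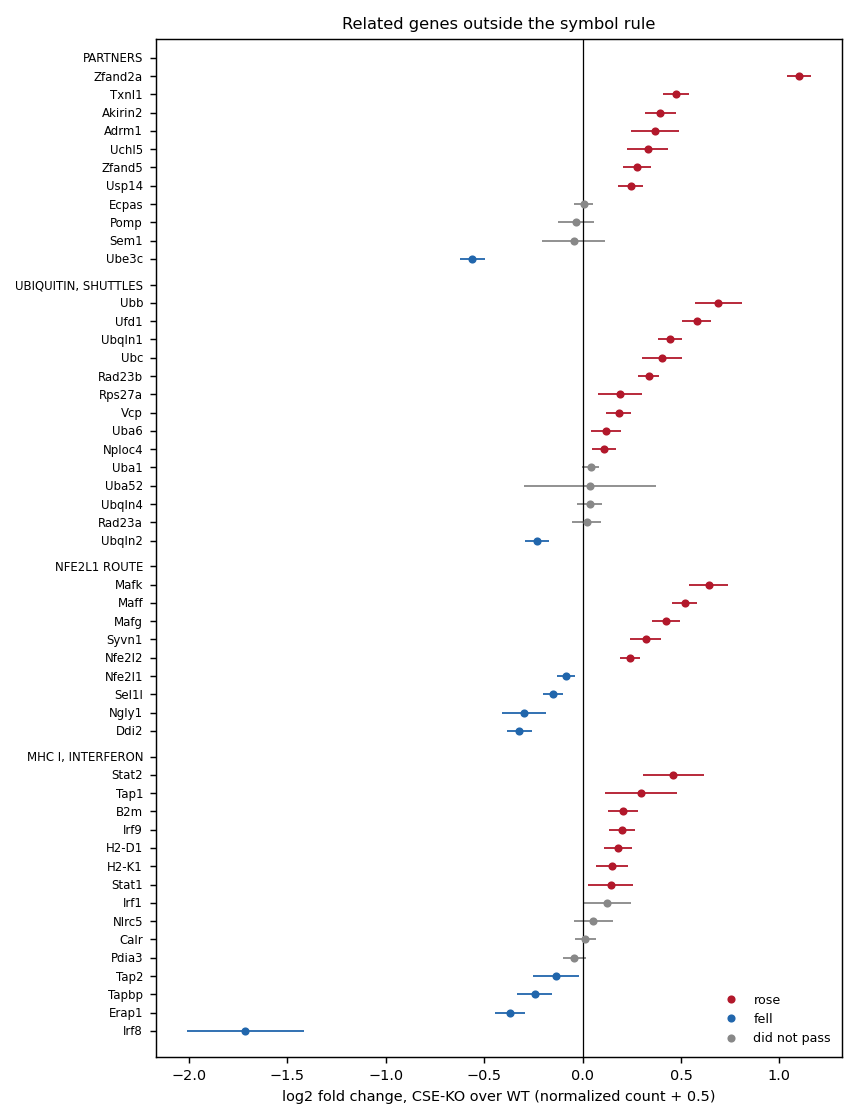
Log2 fold change, CSE-KO over WT, of 49 related genes that the symbol rule does not take, in the 4 lists described, on the scale of log2(normalized count + 0.5). Points are limma estimates from 3 libraries per group, bars are 95% confidence intervals, and colour gives the call. The genes around NFE2L1 hold 5 rises and 4 falls, and the MHC class I and interferon genes 7 rises and 4 falls.

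Members were read more densely than most genes, with a median of 0.167 normalized counts per exonic base beside 0.065 for all tested genes. Undoing the loss of reads that begin at the same base, which applies only if duplicates were removed, raised the median log2 fold change of the members to 0.28, moved a member by at most 0.123 and left 36 rises and 6 falls. CSE-KO 1 lay nearest to WT of its group in 26 of the 42 members called. Without CSE-KO 1, 35 members rose and 6 fell, beside 5231 and 5405 of the 13750 tested genes. The share of all tested genes in which CSE-KO 1 lay nearest to WT was not computed, so the count is not read as a trait of the members. CSE-KO 1 also lay nearest to WT in the sum of lymphatic endothelial markers, which was 6285, 4893 and 4789 in CSE-KO 1 to 3.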

How the data were processed

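The deposited table held 1 whole-number score per gene and library, read here as a normalized count that the authors scaled by library and rounded. No header states this, and recomputed size factors were between 1.003 and 1.008. The submitters' processing notes list DESeq2 1.26.0, featureCounts 1.6.5, Picard 2.21.7, STAR 2.7.3a and Trimmomatic 0.39, and build mm10. Per the labels' protocols, stranded mRNA libraries were made from 300 ng of RNA and read as single ends of 75 bp.

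Values were tested with limma 3.58.1 in R 4.3.3 on log2(value + 0.5), which understates changes of low genes, in genes with at least 10 in at least 3 libraries, with a mean trend and robust variances, two-sided, called at an adjusted p under 0.05. The model was also run on simulated counts. Few genes changed in them, whereas 77.4% of tested genes passed here, so that run does not vouch for these calls. Exonic lengths came from GENCODE mouse release 21. Ratios were tested with SciPy 1.17.1. Members, lists and tests were chosen with earlier results of these data known. Every library value is given for the catalytic subunits, the activators, Psmf1, the largest changes of each class and genes not called; of each related list, the 4 genes with the smallest adjusted p, Tap1, Tap2 and Nfe2l1 are named. Adrm1, Uchl5, Usp14, Pomp and Stat2 were named after their values were seen.

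The variance between libraries over that of counting noise was 0.799 to 2.11 for CSE-KO pairs and 0.663 to 0.716 for WT pairs over 10852 genes. In 832 genes of low read density it was 1.15 to 1.75 for CSE-KO pairs and 0.893 to 0.998 for WT pairs. In 47 members it was 0.405 to 0.759 for CSE-KO pairs and 0.397 to 0.533 for WT pairs, below counting noise in both groups. All 6 libraries, none with identical values, were kept as separate samples, and counting WT, or CSE-KO 2 and 3, as 1 sample was an alternative.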

Additional observations from a re-analysis of the deposited data

How the results depend on the processing

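Over 20 alternatives the rises of members numbered between 33 and 39 and the falls 5 or 6, except in the test against a fold of 1.2. That test called 12 members (11 higher, 1 lower), 15 related genes (12 higher, 3 lower) and, of all genes called, 6711 (3182 higher, 3529 lower), and it lowers counts by construction. Leaving out 1 library gave 40 to 41 members called (34 to 35 higher, 5 to 6 lower), 37 to 38 related genes (27 to 29 higher, 9 to 10 lower) and 10137 to 10636 of all genes (4999 to 5231 higher, 5101 to 5405 lower). The log2 ratio difference without 1 library was −1.02 to −0.87 for Psmb9 over Psmb6, −0.52 to −0.41 for Psmb10 over Psmb7 and −0.13 to 0.0037 for Psmb8 over Psmb5.

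Among single genes, directions turned in Psme1, Psmd13, Psmg1 and Nfe2l1, and the cause was not tested. With upper-quartile scaling, the log2 fold change of Psme1 was 0.046, that of Psmd13 0.043, that of Psmg1 0.089 and that of Nfe2l1 0.0095. With equal library totals Psme1 was at 0.027, Psmd13 at 0.024 and Psmg1 at 0.071. Psmg1 was at 0.0010 with recomputed size factors and between −0.066 and 0.051 without 1 library. Equal totals and upper-quartile scaling moved the median of all genes to 0.077 and 0.096.

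No pairing by replicate number was visible. Deviations of same-numbered libraries correlated at −0.00079, 0.020 and 0.011, and those of differently numbered libraries between −0.020 and 0.0096. A pairing hidden below counting noise would not be seen this way. With the replicate block 41 members were called (35 higher, 6 lower), 37 related genes and, of all genes called, 10440. Depth limits low genes most, such as Psma8 and Psmc3ip.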

Other observations

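WT 2 was the lowest WT library, without a tie, in all 3 immunoproteasome genes and in 12 of the 15 MHC class I and interferon genes. The same held in 23 of the 49 members (46.9%) and in 31.8% of all tested genes. The pattern was noticed after the values were seen. In Stat2, a subunit of the complex that interferon activates, the CSE-KO libraries were at 1245, 1332 and 1252 and the WT libraries at 984, 837 and 968.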
